A study of Homo sapiens with 6 samples.

Results

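The aldo-keto reductase (AKR) genes were followed in MDA-MB-231 cells after inhibition of miR-138. All array probes annotated to AKR1A1, AKR1B1, AKR1B10, AKR1C1, AKR1C2, AKR1C3, AKR1C4 or AKR7A2, older aliases included, were taken. Of these 8 genes, 6 had a probe, against 20046 named genes on the arrays, and they were covered by 12 of the 47322 probes. No probe carried the symbol AKR1A1 or AKR1B1, and neither gene was analysed here. MDA-MB-231 is a human triple-negative breast cancer line that the labels class as basal. In the antagomiR-138 group (n = 3) the cells carried lentivirus for an RNA complementary to miR-138, which the labels call antimiR-138. In the scrambled control group (n = 3) the lentivirus expressed a non-targeting sequence instead. Both groups received 6 transduction units, grew in the same serum-containing medium and were harvested at 72 h, on day 3. The vector expressed its insert from the H1 promoter in every transduced cell and also carried a green fluorescent reporter and a puromycin resistance gene. Total RNA was hybridised to 1 Illumina bead array per sample, so the 6 arrays are 6 samples, and no source used here says whether they came from separate cultures. The p-values below thus rest on sample-to-sample scatter alone, part of which may be technical.

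Aldo-keto reductases use NADPH to reduce aldehydes and ketones to alcohols. The AKR1C enzymes act on steroids and prostaglandins. AKR1C3 makes testosterone from androstenedione and a prostaglandin F2 isomer from prostaglandin D2, AKR1C1 inactivates progesterone, AKR1C2 inactivates dihydrotestosterone, and AKR1C4 is best known from the liver, where it serves bile acid synthesis. AKR1B10 reduces retinaldehyde, and AKR7A2 reduces succinic semialdehyde and aflatoxin dialdehyde. The AKR1C genes lie side by side on human chromosome 10 and are close copies of one another. Several of them, with AKR1B10, are textbook targets of NRF2, the transcription factor of the response to oxidative and electrophilic stress.

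The sequences upstream of the AKR1C genes with a probe above background are shown because those probes were all lower and the genes are close copies. Whether the probes read separate messages was not tested, nor was any part of these sequences in the falls. In RefSeq gene order on chromosome 10, the protein-coding genes run AKR1E2, AKR1C1, AKR1C2, AKR1C3, AKR1C8, AKR1C4. The 250 bases before each RefSeq start (GRCh38.p14) are printed 5′ to 3′ on the strand of the gene. Capitals mark matches, on either strand, to CCAAT, GGTTAACC or TGANNNNGC, the last being the core of the antioxidant response element that NRF2 binds.
AKR1C3, start 1 (chr10:5048531-5048780, + strand): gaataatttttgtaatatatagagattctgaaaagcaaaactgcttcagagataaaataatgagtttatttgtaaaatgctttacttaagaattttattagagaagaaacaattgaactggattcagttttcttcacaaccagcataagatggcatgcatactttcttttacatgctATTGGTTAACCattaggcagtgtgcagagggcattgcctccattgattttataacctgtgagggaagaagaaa
AKR1C3, start 2 (chr10:5094164-5094413, + strand): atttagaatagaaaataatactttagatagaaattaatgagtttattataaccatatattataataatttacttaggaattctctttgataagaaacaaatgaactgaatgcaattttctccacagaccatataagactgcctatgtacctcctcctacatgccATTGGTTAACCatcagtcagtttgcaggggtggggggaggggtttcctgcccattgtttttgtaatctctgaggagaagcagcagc
AKR1C4 (chr10:5196587-5196836, + strand): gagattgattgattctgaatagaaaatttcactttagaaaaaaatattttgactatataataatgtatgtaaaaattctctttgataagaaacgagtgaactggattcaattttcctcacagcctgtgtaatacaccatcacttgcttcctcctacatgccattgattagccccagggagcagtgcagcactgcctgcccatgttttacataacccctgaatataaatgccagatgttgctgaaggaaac
AKR1C2 (chr10:5003858-5004107, - strand): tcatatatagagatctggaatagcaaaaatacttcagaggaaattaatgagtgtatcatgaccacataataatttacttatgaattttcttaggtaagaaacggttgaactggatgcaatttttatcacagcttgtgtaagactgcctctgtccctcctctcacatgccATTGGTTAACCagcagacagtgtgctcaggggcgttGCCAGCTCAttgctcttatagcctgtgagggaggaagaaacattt
The octamer GGTTAACC stood in all 3 of these windows of AKR1C3 and AKR1C2, 70, 83 and 78 bases before the start, and overlapped by 2 bases an inverted CCAAT, so that both read ATTGGTTAACC. It was absent from the AKR1C4 window. The octamer was noticed in these sequences before it was counted, and it stood in 53 of 35116 RefSeq promoter windows of this length (0.151%), against 32% for CCAAT and 35.2% for TGANNNNGC. The AKR1C1 window, which also holds ATTGGTTAACC, was identical to that of AKR1C2 in 245 of 246 aligned bases (99.6%). Start 2 of AKR1C3 shared 79.5% of aligned bases with AKR1C2 and 74.2% with AKR1C4, against 47.5% with start 1 of AKR7A2, a gene on chromosome 1. For start 1 of AKR1C3 these shares were 77.2%, 68.7% and 42.6%. TGANNNNGC matched once in the AKR1C2 and AKR1C1 windows, 3 times in each AKR7A2 window and not in those of AKR1C3 or AKR1C4. TGACTCA, the site of AP-1 factors, was in none of them and in 4.2% of all windows. A match is a description of the letters only. The miRNA under study is shown for its seed, bases 2 to 8, in capitals, by which it pairs with messages.
hsa-miR-138-5p: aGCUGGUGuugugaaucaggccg
This mature RNA (23 bases) is made from a gene on chromosome 3 and another on chromosome 16. Its level in these samples was not analysed here.

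The deposited values were background-subtracted intensities, with a detection p-value for each probe on each array from the negative controls of that array. Between 19263 and 20430 probes were detected (p under 0.05) on the antagomiR-138 arrays and between 19377 and 20247 on the control arrays. Log2 values correlated at 0.994 to 0.996 within groups and at 0.968 to 0.970 between groups, and no array stood apart. A probe entered the test when it was detected on at least 3 of the 6 arrays, which 20051 probes did. The markers of mesenchymal-like triple-negative lines, VIM, CD44, EGFR, CAV1, AXL, MSN and ZEB1, all entered, 7 in number, with ZEB1 detected on 2 of the antagomiR-138 arrays. Of these, 1 was called higher and 4 lower at an adjusted p under 0.05 (limma), by the brightest entering probe of each gene. Over all 11426 genes, 28.9% were called higher and 27.7% lower in the same way. Of the 13 luminal markers, ESR1, PGR, FOXA1, CDH1 and TFF1 did not enter, while ERBB2, GATA3, KRT8, KRT18, KRT19, EPCAM, XBP1 and TFF3 did, 3 of them called higher and 4 lower. Entry alone thus does not tell the 2 types apart. Summed over the markers that entered, normalised intensity was 87710 to 89380 in antagomiR-138 samples and 103500 to 107600 in control samples for the triple-negative list, and 12130 to 12850 in antagomiR-138 samples and 14080 to 14520 in control samples for the luminal list (8 of 13). The fibroblast list (5 of 8, without COL3A1, FAP and POSTN) summed to 846.4 to 961.9 in antagomiR-138 samples and 450.9 to 478 in control samples. COL1A1 of this list was not detected on any control array and was at least 1.85-fold higher. COL1A2 was higher by 1.88 on the log2 scale, although its other probe gave -0.08. LUM, detected on 1 control array, was higher by 1.39, while PDGFRB was lower at -1.70 and DCN at -0.35. The leukocyte list (4 of 7 with a probe, without PTPRC, CD3E and ITGAM) summed to 6733 to 7219 in antagomiR-138 samples and 6253 to 6868 in control samples. Within it HLA-DRA was higher by 2.23 and CD14 by 1.48, and LYZ did not pass at 0.16. CD68 was lower at -0.64, although its other entering probes gave -0.065 and 0.04. The part of these shifts in the results on AKR genes was not tested.

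Of the 12 AKR probes, 4 passed the detection filter, 1 each for AKR1C2, AKR1C3, AKR1C4 and AKR7A2. The AKR1C2 probe was detected on 1 of the 3 antagomiR-138 arrays and on all 3 control arrays. It thus met the filter only through the group in which it was higher, and its call is a description only. All 3 AKR1C probes were lower in antagomiR-138 cells at an adjusted p under 0.05 (limma, Benjamini-Hochberg over 20051 probes), and the AKR7A2 probe did not pass. The same threshold was passed in either direction by 49.9% of all entering probes, by 23.9% as lower and by 26.0% as higher, so a call alone was common on these arrays. Without normalisation between arrays the balance turned, with 2866 probes higher and 3921 lower, against 5212 higher and 4789 lower here. By size, 883 entering probes were called and at least 2-fold lower. Among all falls, the AKR1C3 probe ranked 45th, the AKR1C4 probe 124th and the AKR1C2 probe 308th. The groups did not overlap for any of the 3 AKR1C probes, which was also the case for 59.1% of all entering probes.

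**Figure D1:**
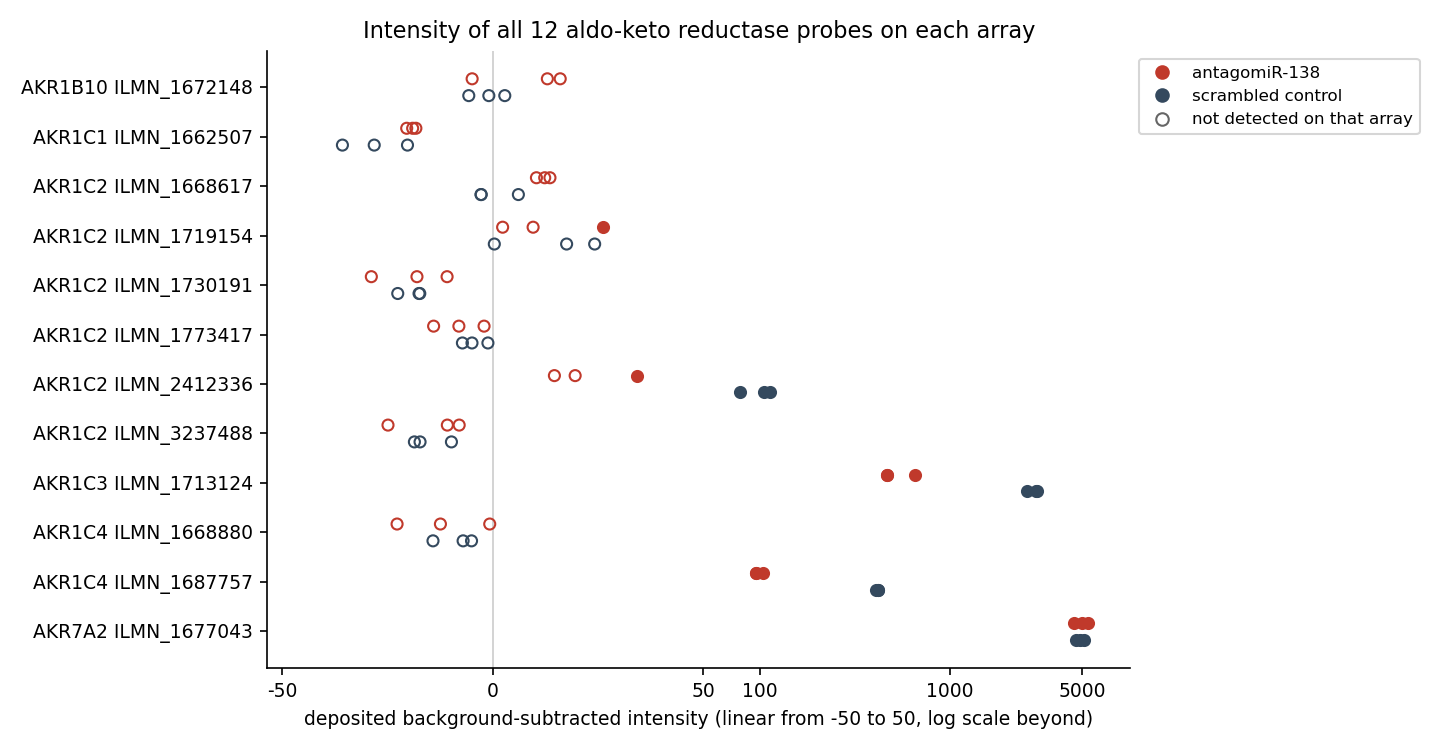
Deposited background-subtracted intensity (linear near 0, log scale beyond) of the 12 AKR probes on the 3 antagomiR-138 and 3 scrambled control arrays, 1 point per array, open where the probe was not detected on that array. AKR1C3, AKR1C4 and AKR7A2 each have 1 probe detected on all 6 arrays, AKR1C2 has 1 detected on 4, and the AKR1C3 points sit at 465 to 658 in antagomiR-138 cells against 2558 to 2889.5 in control cells.

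AKR1C3, the androgen- and prostaglandin-forming member, fell the most. Its only probe, ILMN_1713124, had deposited intensities of 658, 469 and 465 in antagomiR-138 samples, against 2558, 2889.5 and 2875 in control samples. After normalisation its log2 intensity was 9.18, 9.01 and 9.16 in antagomiR-138 samples and 11.37, 11.52 and 11.44 in control samples. Every antagomiR-138 sample lay more than 2 log2 units below every control sample, and the spread within each group was small (SD 0.091 in antagomiR-138 and 0.076 in control samples, n = 3 each). The log2 fold change was -2.33 (SE 0.0768, 95% interval -2.51 to -2.15), which is 5.03-fold lower (4.43 to 5.71), with a limma adjusted p of 8.472e-06. The probe was detected on all 6 arrays. In RNA from bulk cultures, fewer cells expressing the gene and less of its RNA per cell cannot be told apart.

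AKR1C4, the member best known from the liver, was detected on all 6 arrays by 1 of its probes, ILMN_1687757. Its intensities were 95, 94.8 and 103 in antagomiR-138 samples, against 419, 408 and 420.1 in control samples. The log2 intensities were 6.64, 6.87 and 7.11 in antagomiR-138 samples and 8.77, 8.73 and 8.68 in control samples. The groups were far apart, although the antagomiR-138 samples scattered more (SD 0.237) than the control samples (SD 0.043). The log2 fold change was -1.85 (SE 0.121, 95% interval -2.14 to -1.56), 3.61-fold lower, with a limma adjusted p of 5.806e-05. Its other probe, ILMN_1668880, was not detected on any array, with intensities of -22.7 to -0.724 and detection p of 0.495 to 0.938. The annotation assigns both probes to the same transcript record, yet 1 was above background on all 6 arrays and the other on none.

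AKR1C2, which inactivates dihydrotestosterone, was measured near background. Probe ILMN_2412336 had intensities of 34.3, 19.6 and 14.6 in antagomiR-138 samples, against 78.6, 104.7 and 112.4 in control samples. It was detected on 1 of the 3 antagomiR-138 arrays and on all 3 control arrays. Its log2 intensities were 5.57, 5.26 and 5.15 in antagomiR-138 samples and 6.55, 6.90 and 6.91 in control samples. The log2 fold change was -1.46 (SE 0.144, 95% interval -1.80 to -1.12), 2.75-fold lower, with a limma adjusted p of 0.0002777. Since 2 of the antagomiR-138 values were not above background, the size of this change depended on how background was treated. With the normexp correction at an offset of 50 the log2 fold change was -0.77, and with the deposited values floored at 1 it was -2.13.

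The other 5 AKR1C2 probes lay at background and could neither show nor deny a change. Probe ILMN_1719154 was detected on 1 array only, that of antagomiR-138 replicate 1, and its intensities were 26.2, 2.34 and 9.58 in antagomiR-138 samples and 17.5, 0.366 and 24.2 in control samples. Probes ILMN_1668617, ILMN_1730191, ILMN_1773417 and ILMN_3237488 were detected on no array. Their intensities lay between -28.9 and 13.6 over both groups, with detection p of 0.161 to 0.983. When every probe was tested without the detection filter, the AKR probes that passed were the same 3 as before. The AKR1C2 call therefore rests on 1 of 6 probes.

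AKR1C1, whose upstream sequence and protein are nearly those of AKR1C2, was not above background on any array. Its single probe, ILMN_1662507, had intensities of -19, -20.4 and -18.3 in antagomiR-138 samples and -35.7, -20.3 and -28.2 in control samples, with detection p of 0.908 to 0.999. AKR1B10, the retinaldehyde reductase, was likewise not above background. Its probe, ILMN_1672148, had intensities of 13, -4.9 and 16 in antagomiR-138 samples and -0.935, -5.7 and 2.85 in control samples, with detection p of 0.106 to 0.649. No fold change is given for either gene. A probe below background sets only an upper limit on what that probe saw and does not show that the gene was silent.

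AKR7A2, the succinic semialdehyde reductase on chromosome 1, was detected on all 6 arrays and did not pass the test. Probe ILMN_1677043 had log2 intensities of 12.17, 12.34 and 12.37 in antagomiR-138 samples and 12.31, 12.21 and 12.25 in control samples, and the groups overlapped. The log2 fold change was 0.0365 (SE 0.0766, 95% interval -0.15 to 0.22), with a limma adjusted p of 0.7256. This interval does not meet that of any of the 3 AKR1C probes.

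**Figure D2:**
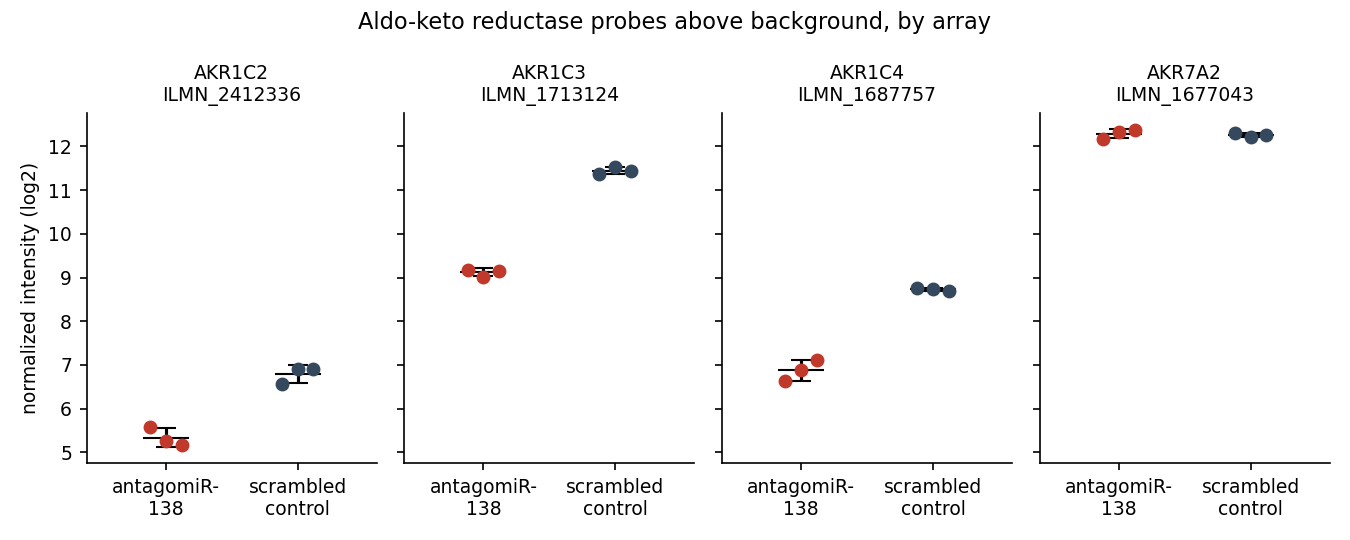
Normalised log2 intensity of the 4 AKR probes that passed the detection filter, 1 point per array, with antagomiR-138 left of scrambled control in each panel and the group mean ± SD (n = 3) as a bar. AKR1C2, AKR1C3 and AKR1C4 lie lower in all antagomiR-138 samples, at means of 5.33, 9.12 and 6.88 against 6.79, 11.45 and 8.73 in control samples, while the AKR7A2 groups overlap.

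Close copies raise the question of whether one message is read by several probes. The AKR1C transcripts are similar enough for a probe to bind more than 1 of them, and the probe sequences were not used here, so cross-hybridisation was not tested. What the arrays do give is the difference between probes within a sample. The log2 value of AKR1C3 minus that of AKR1C4 was 2.24 ± 0.262 in antagomiR-138 samples and 2.72 ± 0.103 in control samples (SD, n = 3 each), a change of -0.48. AKR1C4 minus AKR1C2 was 1.55 ± 0.449 in antagomiR-138 samples and 1.94 ± 0.244 in control samples, a change of -0.39 that became -0.16 without antagomiR-138 replicate 1 and -0.26 without scrambled control replicate 1. These 2 pairs were chosen after their values were seen, and a two-sided exact permutation test gave p = 0.1 for the first, the smallest that 3 against 3 samples can give, and p = 0.3 for the second. Among 3 further pairs, AKR1C3 minus AKR1C2 changed by -0.87, AKR1C3 minus AKR7A2 by -2.37 and AKR1C2 minus AKR7A2 by -1.50, each with p = 0.1 by the same exact permutation test and an adjusted p of 0.1 over the 3 pairs. A log2 value with an offset compresses the change of dim probes, so the ratios of group means were also taken on the authors' normalised linear intensities. On that scale AKR1C3 was 5.10-fold and AKR1C4 3.95-fold lower in antagomiR-138 cells, where the log2 values had given 5.03-fold and 3.61-fold. No such ratio is given for AKR1C2, which was at background on 2 of the 3 antagomiR-138 arrays.

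The direction of the 3 AKR1C falls did not depend on the processing. Over 17 other settings the log2 fold change of AKR1C3 ran between -2.38 and -2.20, and that of AKR1C4 between -2.005 and -1.41. Over the 16 settings in which it could be tested, that of AKR1C2 ran between -2.13 and -0.77. All of these kept an adjusted p under 0.05, the highest being 0.00563 for AKR1C2. AKR7A2 ran between -0.002 and 0.11 and passed in none of its 17 settings.

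**Figure D3:**
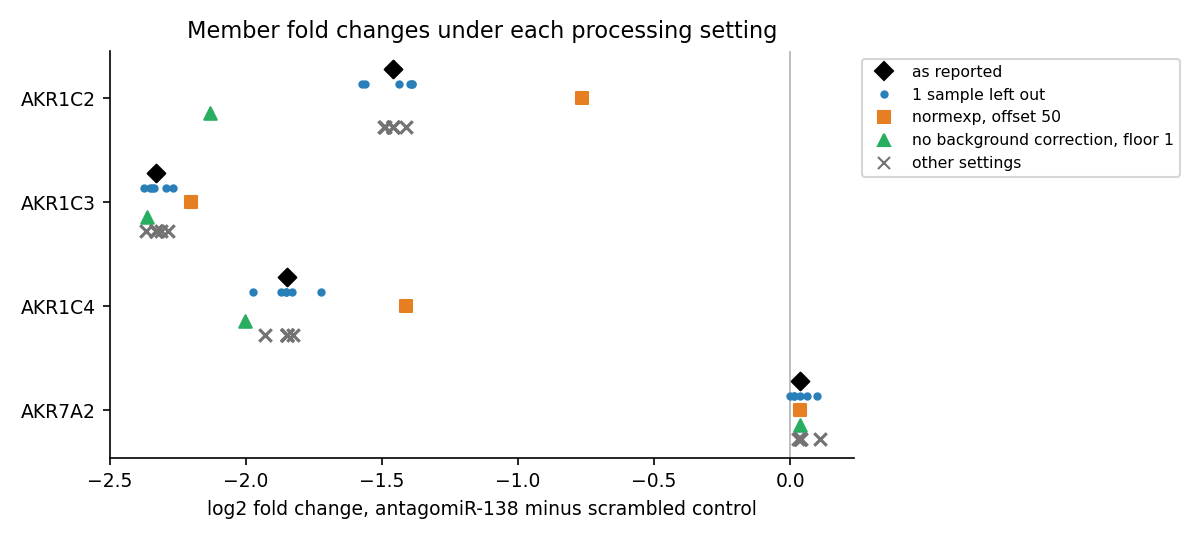
Log2 fold change (antagomiR-138 minus scrambled control, x axis) of the 4 AKR probes above background, as reported (diamonds) and under each other setting (other symbols, 1 per setting). AKR1C3 stays between -2.38 and -2.20, whereas AKR1C2 moves between -2.13 and -0.77 with the treatment of background.

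The genes whose pattern over the 6 arrays lay closest to that of AKR1C3 were sought next. Likeness was the Euclidean distance between log2 profiles, each centred on its own mean, and its median over 11425 genes was 2.90. The 5 closest were MT1F, a metallothionein that binds zinc and copper, at 0.147, RAB27B, a small GTPase of vesicle secretion, at 0.157, PNMA2 at 0.164, ELFN2 at 0.198 and CASP6, an executioner caspase, at 0.207. The log2 fold changes of MT1F, RAB27B, PNMA2 and CASP6 were -2.28, -2.34, -2.26 and -2.30. ELFN2 was not detected on any antagomiR-138 array and was at least 3.32-fold lower. AKR1C4 was 87th in this order, at a distance of 0.709, and AKR1C2 was 226th, at 1.12. By its construction the measure places a gene close to AKR1C3 when the step between the groups is alike.

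The NRF2 pathway was described next, because it controls several AKR genes. A gene was represented by its brightest entering probe, and over all 11426 genes 56.6% passed, 28.9% as higher and 27.7% as lower, the groups did not overlap for 66.6%, and the median log2 fold change was 0.021. NFE2L2, which encodes NRF2 itself, had log2 intensities of 11.95, 11.94 and 11.77 in antagomiR-138 samples and 11.98, 11.96 and 12.02 in control samples. Its log2 fold change of -0.10 did not pass (limma adjusted p = 0.3157). Of the 7 regulators that entered, of 10 listed, 4 were higher and none was lower. KEAP1, which holds NRF2 for degradation, had log2 intensities of 9.77, 9.89 and 10.05 in antagomiR-138 samples and 9.55, 9.58 and 9.55 in control samples, a log2 fold change of 0.34 (limma adjusted p = 0.01376). Its other probe gave 0.66. RBX1, a subunit of the ubiquitin ligase that KEAP1 recruits, was higher by 0.41, NFE2L1, a relative of NRF2, by 0.36, and MAFG, a small MAF partner of NRF2, by 0.45. SQSTM1, which binds KEAP1, had a log2 fold change of -0.12 and the brightest probe of MAFF, another small MAF, -0.04, and neither passed. A further MAFF probe was detected on all 3 antagomiR-138 arrays and on no control array, and was at least 3.76-fold higher. Without normalisation between arrays, 0 of the 7 regulators passed in either direction.

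Of the NRF2 target genes outside the AKR family, 23 of 31 entered, with a median log2 fold change of -0.48. Of those that entered, 13 were lower, 3 were higher and the other 7 missed the threshold. Over all genes 27.7% passed as lower and 28.9% as higher, with a median of 0.021. NQO1, a quinone reductase and the usual readout of NRF2 activity, was close to AKR1C3 in size. Its log2 intensities were 10.61, 10.54 and 10.59 in antagomiR-138 samples and 12.63, 12.68 and 12.54 in control samples, a log2 fold change of -2.04 (limma adjusted p = 8.472e-06), and its other probe gave -1.85. UGDH, which makes UDP-glucuronate, had a log2 fold change of -1.76 with no overlap between the groups. The targets were not uniform. GCLC, the catalytic subunit of glutamate-cysteine ligase in glutathione synthesis, was higher by 0.73. Its log2 intensities were 9.19, 9.07 and 9.20 in antagomiR-138 samples and 8.398, 8.48 and 8.39 in control samples. HMOX1, heme oxygenase, was higher by 0.46. The list was compiled from textbook targets with earlier results of these arrays known, so its balance is a description.

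**Figure D4:**
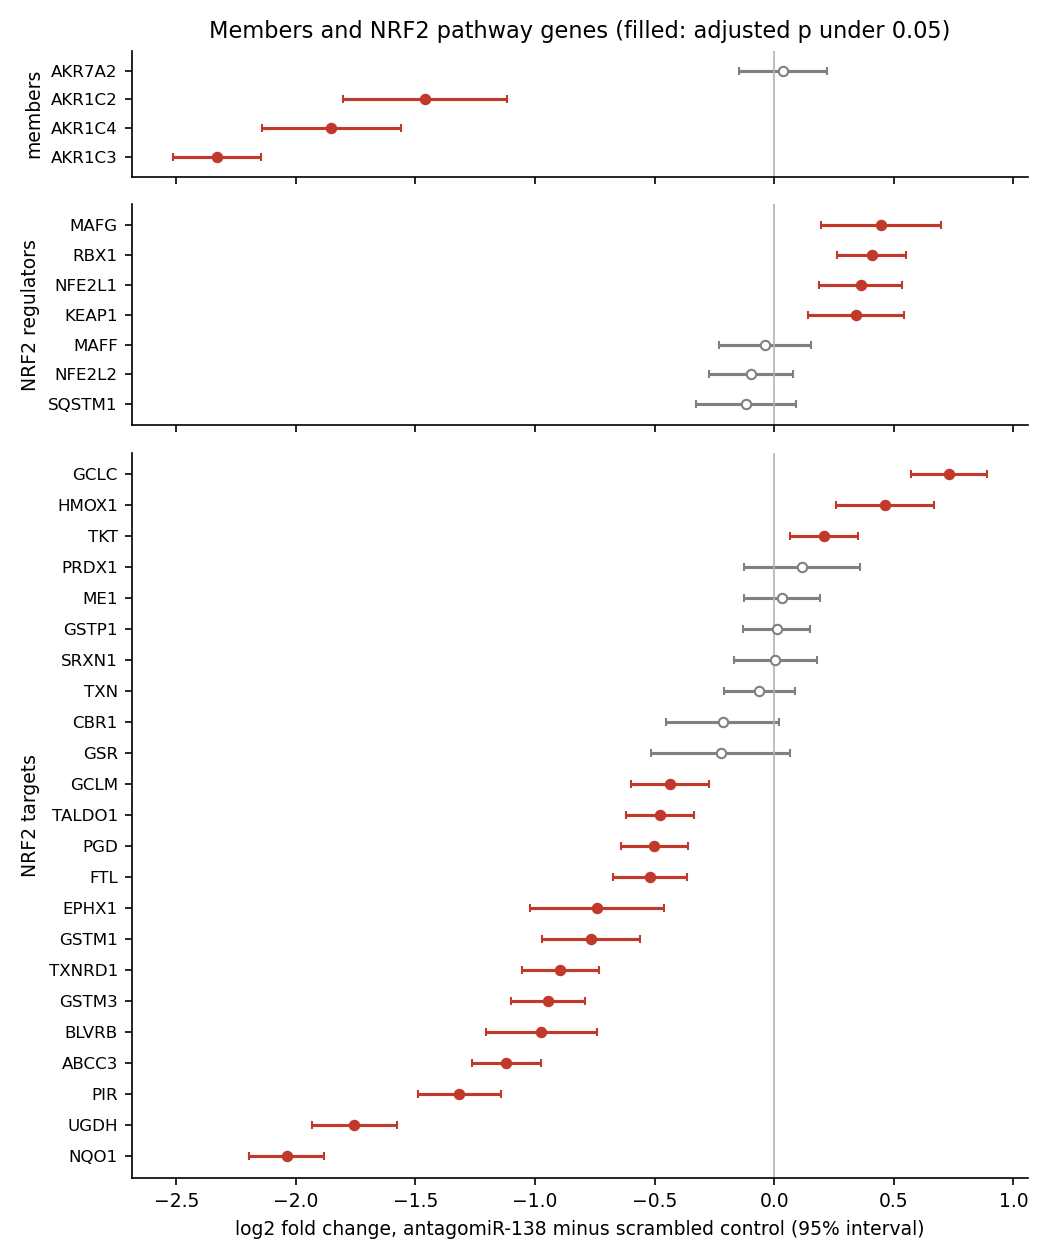
Log2 fold change (antagomiR-138 minus scrambled control) with its 95% interval for the 4 AKR genes above background, the 7 NRF2 regulators and the 23 NRF2 targets that entered, filled where the adjusted p was under 0.05. AKR1C3 at -2.33 and NQO1 at -2.04 lie at the lower end, NFE2L2 at -0.10 is near 0 and GCLC at 0.73 is the highest target.

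Genes near the AKR1C genes in function went in both directions, as did all genes, of which 28.9% passed as higher and 27.7% as lower. Of the 9 other members of the AKR superfamily, 2 entered, 1 was higher and 0 were lower. AKR1D1, the steroid 5-beta-reductase of the liver, had log2 intensities of 13.98, 14.10 and 14.05 in antagomiR-138 samples and 13.71, 13.85 and 13.81 in control samples, a log2 fold change of 0.25 (limma adjusted p = 0.02032). Its other probe was not above background, and whether the bright probe reads AKR1D1 was not tested. The call was lost when antagomiR-138 replicate 2, antagomiR-138 replicate 3 or scrambled control replicate 1 was left out. AKR7A3, next to AKR7A2 on chromosome 1, had a log2 fold change of 0.02 (limma adjusted p = 0.8737). Among carbonyl reductases and aldehyde-clearing enzymes, which share substrates with the AKR enzymes, 16 of 20 entered, 4 were higher and 6 lower, with a median of -0.18, and without normalisation between arrays 1 was higher and 6 were lower. The largest falls were those of ALDH2, the mitochondrial acetaldehyde dehydrogenase, at -1.63, and of GLO1, which clears methylglyoxal, at -1.49. The largest rises were those of ALDH1A3 at 0.59 and PTGR2 at 0.38.

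Enzymes around the AKR1C substrates went both ways, as did all genes (28.9% passed as higher and 27.7% as lower). Of 26 steroid-metabolising enzymes 11 entered, 3 higher and 5 lower, with a median log2 fold change of -0.11. With detection p under 0.01 required on all 6 arrays, 8 entered, 3 higher and 3 lower, and the median turned to 0.108. HSD17B10, a mitochondrial dehydrogenase, had log2 intensities of 10.25, 10.15 and 10.22 in antagomiR-138 samples and 7.60, 7.71 and 7.88 in control samples. It was higher by 2.48 (limma adjusted p = 9.614e-06) and its other probe by 2.33, as large a step as that of AKR1C3 but upward. HSD17B7 was higher by 0.50. HSD17B6 was not detected on any antagomiR-138 array and was at least 2.04-fold lower, and HSD17B4, of peroxisomal beta-oxidation, had a log2 fold change of -0.82. Of 21 prostaglandin enzymes and receptors 8 entered, 2 higher and 4 lower, with a median of -0.41. Under the stricter filter 6 entered, 2 higher and 3 lower, with a median of -0.256. PTGS2, the inducible cyclooxygenase upstream of the prostaglandin that AKR1C3 reduces, had log2 intensities of 8.72, 8.71 and 8.62 in antagomiR-138 samples and 5.88, 5.83 and 6.10 in control samples, and was higher by 2.75 (limma adjusted p = 8.472e-06). PTGES2 was higher by 0.47. PTGER4, a receptor of prostaglandin E2, had a log2 fold change of -1.69, and PTGS1, the constitutive cyclooxygenase, was not detected on any antagomiR-138 array and was at least 1.45-fold lower.

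Of 18 retinaldehyde and retinol genes 11 entered, 3 higher and 4 lower, with a median log2 fold change of -0.17. Over all genes 28.9% passed as higher and 27.7% as lower. RDH5, a retinol dehydrogenase, had a log2 fold change of -0.93 and CRABP2, which carries retinoic acid, -0.89, whereas ALDH1A3, which makes retinoic acid from retinaldehyde, was higher by 0.59 and RDH10 by 0.29. The count fell to 1 higher and 3 lower when antagomiR-138 replicate 1, antagomiR-138 replicate 3 or scrambled control replicate 2 was left out. Of 12 enzymes that supply NADPH, the cofactor of the AKR enzymes, 11 entered, 1 higher and 4 lower, with a median of -0.055. NNT, the mitochondrial transhydrogenase, had a log2 fold change of -0.69 and PGD, of the pentose phosphate pathway, -0.50, while NADK2, a mitochondrial NAD kinase, was higher by 0.36. The call of NADK2 was lost when any of the 3 antagomiR-138 replicates or scrambled control replicate 1 or 2 was left out, and also without background correction, normalisation or the detection filter.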

How the data were processed

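Gene expression was measured in 6 samples of MDA-MB-231 cells, grouped and numbered from the sample labels. The authors hybridised biotinylated cRNA from 500 ng of total RNA on Illumina bead arrays. One table they deposited holds intensity after background subtraction, without normalisation between arrays, and a detection p-value for every intensity. Another holds normalised linear intensity. The authors' normalised columns kept the rank order of the unnormalised ones and share their quantiles, and no source used here names the method. GenomeStudio 1.9.0 is listed among the submitters' processing notes. The array design named in the methods differs from the platform of the probe annotation, through which genes were named. Of 47322 probes, 30113 have 1 symbol there, 8 several and 17201 none. Some items are not reported here.

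R 4.3.3 and limma 3.58.1 were used. With neqc, background was corrected by normexp, controls being inferred from detection p-values, and arrays were quantile normalised and put on a log2 scale at an offset of 16. Every probe detected at p under 0.05 on 3 or more arrays was tested with lmFit and eBayes, two-sided, with Benjamini-Hochberg adjustment over 20051 probes and a threshold of 0.05. Intervals are 95%. The fit was tested on simulated data. Where a group never detected a probe, the fold change is given as a bound, set by the higher of its own signal and the lowest signal among detected probes. Differences between 2 AKR probes within arrays were compared by exact permutation. The genes named are all probes of the 8 AKR genes, every NRF2 regulator that entered, from each other list the 2 largest rises and falls that passed without overlap of the groups, and the 5 genes closest to AKR1C3. The members and lists were chosen with earlier results of these data known. AKR1B1 was to be treated like AKR1C3 but has no probe in the annotation. No slide term was fitted, since slides are unstated in the sources. Promoter and miRNA sequences are from RefSeq (GRCh38.p14), and motifs were chosen after the sequences were seen. The number of arrays limits the precision, and SDs within groups had a median of 0.116 (log2).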

Additional observations from a re-analysis of the deposited data

How the results depend on the processing

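Other background corrections and normalisations, the authors' normalised table, other detection filters, 1 probe per gene, other variance settings, the methods' t-test, a threshold of 0.01 and leaving out each sample left 3 AKR1C probes called lower wherever they were tested; AKR1C2 did not pass the filter at a detection p under 0.01 on all 6 arrays. The methods' t-test called 10423 of 20051 probes at an unadjusted p below the customary threshold of 0.05 and 8756 after Benjamini-Hochberg adjustment, and 3 of the 4 AKR probes either way.

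Background correction moved differences between AKR probes. With normexp at an offset of 50, AKR1C3 minus AKR1C2 was -1.44, AKR1C2 minus AKR7A2 -0.80 and AKR1C3 minus AKR1C4 -0.79. With values floored at 1, AKR1C3 minus AKR1C2 was -0.23, AKR1C2 minus AKR7A2 -2.17 and AKR1C4 minus AKR1C2 turned to 0.13. Without normalisation between arrays the calls numbered 0 for other AKR superfamily genes, 0 for NRF2 regulators, 4 for retinoid genes and 2 for NADPH enzymes, and without a detection filter 0 for other AKR superfamily genes and 4 for retinoid genes. Leaving out 1 sample gave 0 to 1 calls for other AKR superfamily genes and 4 to 5 for retinoid genes. The cause was not tested.

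Deviations of samples with equal replicate numbers correlated at -0.014, -0.006 and 0.041, and those with unequal numbers at -0.047 to 0.054. This gave no sign of pairing by replicate number, but it cannot exclude it. With the replicate number as a block, 9305 probes were called, against 10001 without it, and the AKR calls stayed at 3 (AKR1C2 adjusted p = 0.0038, AKR1C4 adjusted p = 0.00123, limma).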
